A study of Rattus norvegicus with 16 samples.

Results

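The mitochondrial respiratory chain was followed here through the nuclear genes of complexes I to V, in sorted leukocytes of rats with autoimmune glomerulonephritis. Its genes were chosen by symbol alone: every gene probe whose symbol starts with Ndufa, Ndufb, Ndufc, Ndufs, Ndufv, Sdh, Uqcr, Cox4, Cox5, Cox6, Cox7 or Atp5, leaving out the Ndufaf assembly factors. This gave 95 of 30367 gene probes, for 76 of the 18461 genes tested. By symbol, 32 genes fall in complex I, 6 in complex II, 8 in complex III, 14 in complex IV and 16 in complex V. A few of the 76 are no subunits: Sdhaf1 and Sdhaf2 assemble complex II, Atp5if1 inhibits the ATP synthase, and Cox6c-ps1 is a transcribed pseudogene. Ndufa4 carries a complex I name but is now placed with complex IV. Cox7a1 and Ndufa4l2 were not analysed here.

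The respiratory chain sits in the inner mitochondrial membrane. Complexes I and II feed electrons from NADH and succinate to ubiquinone, complex III passes them to cytochrome c, and complex IV hands them to oxygen. The proton gradient built on the way drives ATP synthesis by complex V. Most subunits are encoded in the nucleus and expressed in nearly every cell, while a few have isoforms with restricted expression. Lymphocytes change their reliance on respiration as they leave rest, enter tissue and become effector cells.

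Expression was measured on 16 one-colour arrays, 2 for each of 8 groups. All groups came from female rats aged 15 weeks, killed 30 to 35 days after they had been immunised with an autoantigen that causes glomerulonephritis, so no group is free of disease induction. Wistar Kyoto (WKY) and Lewis (LEW) blood and WKY glomeruli each gave CD8+ RT1B+ and CD8+ RT1Blow cells, isolated with magnetic beads, RT1B being a rat MHC class II molecule. The other two groups, both WKY, were pan T cells from blood and cells labelled as macrophages from glomeruli. The array names inside the titles of the macrophage-labelled samples read PANT, as those of the pan T samples do, so which cells these arrays hold is unsettled in the labels; they are called macrophage-labelled throughout. Whether separate animals stand behind the arrays of a group is not in the labels, and the p-values then reflect array-to-array spread only, which may be technical.

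Some facts of the arrays touch the results. Levels are on a log2 scale on which 0 is the 75th percentile of an array's signals, and levels of different genes are not compared. Slide 1 held all LEW blood and WKY blood CD8+ arrays, and slide 2 held the glomerular and pan T arrays. Glomerular against blood CD8+ cells, and blood CD8+ cells against pan T cells, therefore cannot be told apart from the slide. RT1B+ and RT1Blow arrays shared slides but lay in different columns of them. By the array names, LEW and WKY blood CD8+ arrays lay in different rows of slide 1. On slide 2 the glomerular CD8+ arrays lay in another row than the pan T and macrophage-labelled arrays. These differences cannot be told apart from position on the slide. T cell markers stood at a mean level of 3.23 to 3.36 in pan T arrays and between -1.98 and -0.44 in the CD8+ arrays. NK cell markers stood between 3.88 and 4.46 in all CD8+ arrays and at 0.28 and 1.43 in pan T arrays, so the T cell label of the pan T arrays matched its markers while the CD8+ arrays were led by NK genes. On the macrophage-labelled arrays macrophage markers were at 0.45 and 0.76. On the other arrays they lay between -3.72 and 0.40, highest on a LEW blood RT1B+ array. Against pan T cells, 4 of 10 macrophage markers were higher and 0 lower, beside 21.4% and 28.2% of all genes. T cell markers were at 0.50 and -0.77 on the macrophage-labelled arrays. All 13 kidney tubule markers and all 10 glomerular cell markers tested were also well above background on both of these arrays, with mean levels of -1.57 to -0.93 and -0.04 to 0.58. In the CD8+ and pan T arrays the tubule markers lay between -5.85 and -3.91 and the glomerular markers between -5.93 and -4.01. In the glomerular CD8+ groups the tubule mean was -5.50 and -5.20 in RT1B+ cells and -4.19 and -3.91 in RT1Blow cells. Their part in any difference below was not tested. In all these bulk samples, fewer cells of a type and less RNA per cell cannot be told apart.

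The chain was measured above background nearly throughout. All 76 genes passed the filter on dim probes, and 75 were well above background on all 16 arrays, against 68.6% of all genes tested. The exception was Cox6a2, the heart and skeletal muscle isoform of a complex IV subunit, which was well above background on 14 arrays and on neither pan T array. The genes varied less than most: the range of the 8 group means had a median of 0.86 over the 76 genes and 1.61 over all genes tested. The SD between the arrays of a group had a median of 0.14 and 0.22, respectively. Ranges are those of each gene's brightest probe. Within complex I the narrowest was that of Ndufv3, a flavoprotein subunit, at 0.46, and the widest that of Ndufa4 at 2.19. A dimmer Ndufv3 probe, printed 10 times, moved more, from 0.87 in pan T cells to -0.28 in glomerular RT1B+ cells. Glomerular CD8+ minus pan T cells gave -1.14 with that probe (adjusted p = 0.000236, limma). The other 2 Ndufv3 probes gave -0.43 and, for the brightest, -0.18, and did not pass. In complex II the range ran from 0.52 for Sdha, the flavoprotein that oxidises succinate, to 1.11 for Sdhaf1. In complex III it ran from 0.59 for Uqcrfs1, the Rieske iron-sulfur protein, to 2.43 for Uqcrq. In complex IV it ran from 0.51 for Cox6b1 to at least 3.68 for Cox6a2, which was not well above background in pan T cells, and in complex V from 0.44 for Atp5f1c, the rotating gamma subunit, to 1.14 for Atp5mc2, a gene of the membrane c-ring.

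**Figure D1:**
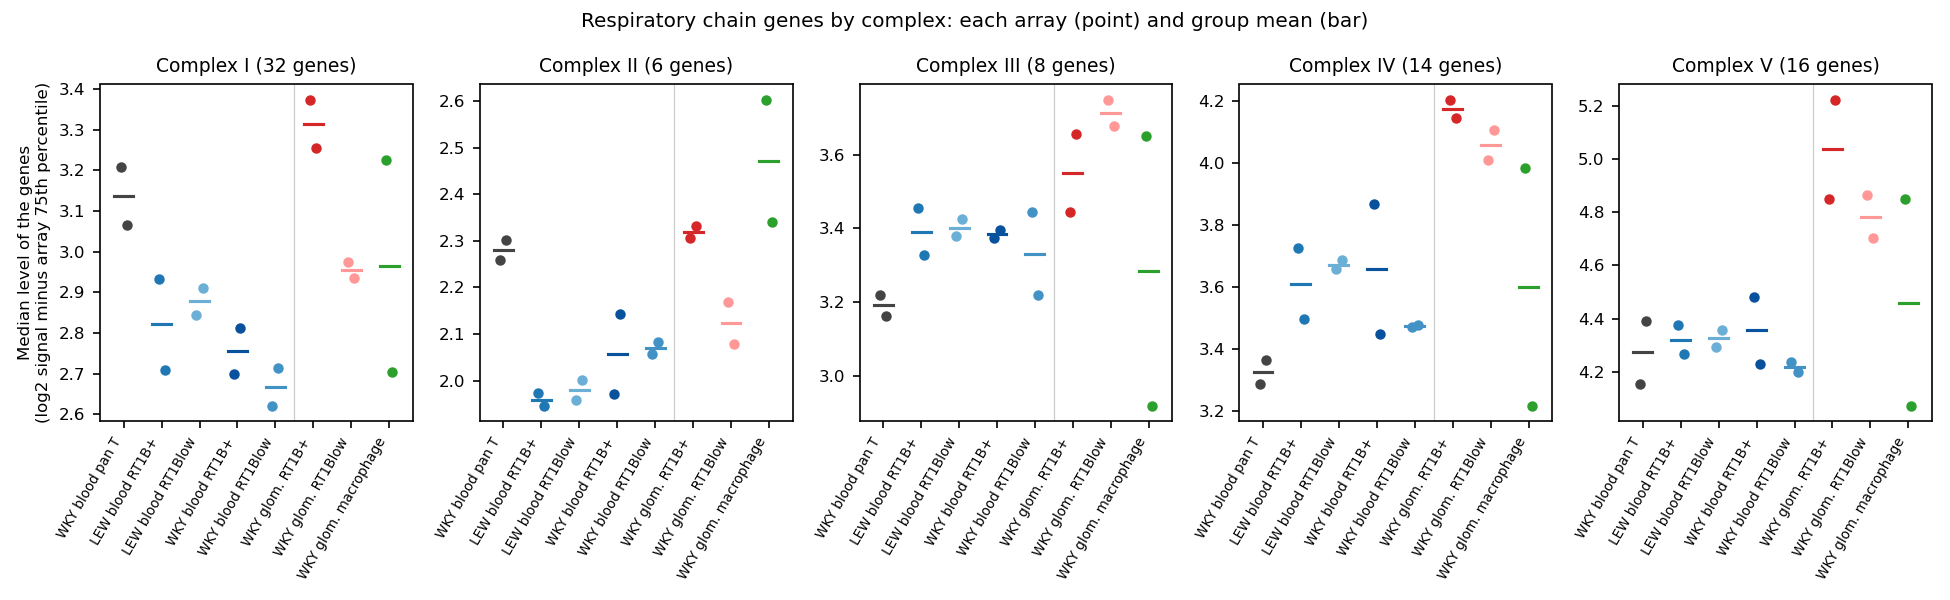
Median level of the genes of each complex on every array (points) with the mean of the 2 arrays of a group (bars), on a log2 scale with 0 at each array's 75th percentile; the grey line separates blood from glomerular (glom.) groups. In complexes IV and V the 4 glomerular CD8+ arrays lie above all blood arrays, and the 2 macrophage-labelled arrays lie far from each other.

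Of the 76 genes, 61 had their highest group mean in a glomerular CD8+ group, 41 in RT1B+ and 20 in RT1Blow cells. This was not counted over all genes, so the share expected of any gene is not known. Of all genes, 57.9% were higher in glomerular than in WKY blood CD8+ cells, and 65.2% higher than in macrophage-labelled arrays, by sign alone. The median level of the complex V genes was 4.85 and 5.22 on the glomerular RT1B+ arrays and 4.87 and 4.70 on the glomerular RT1Blow arrays. It was 4.20 to 4.48 on the WKY blood CD8+ arrays, 4.27 to 4.37 on the LEW blood arrays and 4.15 and 4.39 on the pan T arrays. Every glomerular CD8+ array thus stood above every blood array for this complex. The same held for complex IV, at 4.01 to 4.20 against 3.29 to 3.87 in blood. For complexes I and III the groups overlapped: complex I was at 2.93 to 3.37 in glomerular CD8+ arrays and at 3.07 and 3.21 in pan T arrays. Complex II moved least, at 2.08 to 2.33 in glomerular and 1.97 to 2.14 in WKY blood CD8+ arrays. These orders hold for levels set to the 75th percentile. The glomerular minus blood difference of the WKY CD8+ arrays was 0.55 for complex IV and 0.62 for complex V at that scaling, and 0.17 and 0.15 after quantile normalization.

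Ndufa4, Uqcrq and Cox6a2 had the widest ranges of the 76 genes, and the bases before their start sites are printed for that reason, beside those of Ndufa11, which rose in glomeruli. Promoters of 66 of the 76 genes were matched by symbol in RefSeq, build GRCr8. Motifs bound by the known regulators of respiratory genes were searched on both strands over 250 bases before and 50 after each start. The NRF1 motif was in 12 of 66 windows (18.2%, against 4.25% of 33469 windows of all genes). The ETS motif CCGGAAGT, bound by GABP, was in 6 (9.09%, against 3.81%). The YY1 motif was in 8 (12.1%, against 0.98%). At least 1 of them was in 25 (37.9%, against 8.44%). The 33469 windows were not limited to genes tested or measured above background here, as the 76 genes nearly all were. The 2 sets are therefore unlike, and part of these contrasts may come from that. Capitals below mark these motifs, which may overlap. Printed are the 250 bases before the start, on the strand of the gene: Ndufa4 at chr4:40975560-40975809 (minus strand), Uqcrq at chr10:38089979-38090228 (minus), Cox6a2 at chr1:192219717-192219966 (minus) and Ndufa11 at chr9:1637364-1637613 (plus).
Ndufa4: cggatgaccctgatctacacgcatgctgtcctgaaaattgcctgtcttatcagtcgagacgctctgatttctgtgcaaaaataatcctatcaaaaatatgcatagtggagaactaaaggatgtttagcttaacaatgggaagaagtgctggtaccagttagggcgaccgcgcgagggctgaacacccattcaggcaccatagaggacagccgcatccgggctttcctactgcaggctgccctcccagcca
Uqcrq: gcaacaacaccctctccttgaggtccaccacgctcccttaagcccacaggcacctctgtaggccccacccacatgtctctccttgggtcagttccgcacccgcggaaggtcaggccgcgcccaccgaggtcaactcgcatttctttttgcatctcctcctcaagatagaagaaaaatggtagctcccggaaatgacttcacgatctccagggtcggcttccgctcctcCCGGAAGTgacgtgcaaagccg
Cox6a2: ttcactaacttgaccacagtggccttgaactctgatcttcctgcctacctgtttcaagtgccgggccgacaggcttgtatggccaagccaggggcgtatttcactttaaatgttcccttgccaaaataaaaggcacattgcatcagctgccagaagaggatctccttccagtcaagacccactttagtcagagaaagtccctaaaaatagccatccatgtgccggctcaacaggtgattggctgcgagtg
Ndufa11: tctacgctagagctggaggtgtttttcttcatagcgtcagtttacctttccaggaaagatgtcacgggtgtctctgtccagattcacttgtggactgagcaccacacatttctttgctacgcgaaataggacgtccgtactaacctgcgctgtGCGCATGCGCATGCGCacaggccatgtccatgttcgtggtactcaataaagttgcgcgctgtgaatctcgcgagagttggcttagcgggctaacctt
Ndufa11 held overlapping NRF1 motifs and Uqcrq an ETS motif, while none of the motifs was in the window of Ndufa4 or Cox6a2. A match is a description of letters and says nothing on binding in these cells.

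The first comparison asked how CD8+ cells in the diseased glomeruli differed from those in blood of the same strain. Averaged over RT1B+ and RT1Blow cells of WKY rats, 35 of 76 genes rose in glomeruli and 0 fell (limma, Benjamini-Hochberg adjusted p under 0.05 over all genes). Of all genes tested, 31.7% were called, 19.3% higher and 12.4% lower. The median difference of the 76 genes was 0.52 on the log2 scale, with 69 of them above 0, beside 0.13 for all genes. The 4 glomerular arrays lay above the 4 blood arrays for 41 genes, beside 16.5% of all genes, and below them for 0, beside 11.2%. With a 2-fold minimum, 6 of the 76 genes rose, beside 9.76% of all genes. The size of this group shift depended on how arrays were scaled. The median of the 76 genes stood above that of all genes by 0.39 at the 75th percentile, 0.20 after another background correction (normexp), 0.15 after quantile normalization and 0.00 in the deposited series matrix. After quantile normalization 11 of the 76 were higher and 1 lower (14.5% and 1.32%, beside 15.4% and 15.7% of all genes). In the series matrix 23 were higher and 2 lower (30.3% and 2.63%, beside 28.2% and 8.73%). In both, the share that rose was near that of all genes. Under all 4 scalings the same 10 genes rose: Ndufa2, Ndufa11, Ndufab1, Ndufb5, Sdhaf1, Cox4i2, Cox6a2, Cox6c-ps1, Cox7c and Atp5f1b. Of these, Sdhaf1 and Cox6c-ps1 are no subunits. The share of all genes called the same way under all 4 scalings was not counted, here or in the comparisons below. Whether these 10 are more than that share is therefore not known.

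Complex IV held the largest rises. Cox7c, a small subunit of the complex, was at 2.16 and 2.17 on the glomerular RT1B+ arrays and 1.80 and 1.84 on the RT1Blow arrays, against 0.35 and 0.73 on WKY blood RT1B+ arrays and 0.70 and 0.76 on RT1Blow arrays. All 4 glomerular arrays lay above all 4 blood arrays and above the pan T arrays, at 0.73 and 1.14. The difference was 1.36 ± 0.17 (SE), or 2.56-fold (adjusted p = 0.000295, limma). Cox4i2, an isoform known from lung and from oxygen-sensing cells, was at 1.45, 1.73, 1.81 and 2.14 in glomerular and between 0.64 and 0.93 in WKY blood CD8+ arrays. These groups did not overlap either, and the rise was 0.96 ± 0.19 (adjusted p = 0.00354, limma). Cox4i1, the widespread isoform of the same subunit, differed by 0.19 ± 0.18 (adjusted p = 0.442, limma), with glomerular arrays at 5.85 to 6.24 and WKY blood arrays at 5.65 to 6.03. In all, 8 of 14 complex IV genes rose, the others called being Cox6a1, Cox6a2, Cox6c, Cox6c-ps1, Cox7a2 and Cox7b. Of these, Cox6a1 and Cox6c passed under 1 of 4 scalings: Cox6a1 was at 0.78 at the 75th percentile, 0.36 with normexp, 0.21 after quantile normalization and -0.11 in the series matrix, where its sign turned. Cox7b passed under 2 and Cox7a2 under 3. A second probe of Cox7a2 gave 0.43 and did not pass, beside 0.65 for its brightest probe. Cox7a2l had the lowest difference of the 76 genes, -0.55 at the 75th percentile, where it did not pass, and -0.97, -1.02 and -1.24 under the other 3 scalings, where it did. Cox6c-ps1 resembles Cox6c, so a probe may measure both and their values are uncertain.

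In complex V, 8 of 16 genes rose. Atp5f1b, the catalytic beta subunit, was at 2.71 and 3.34 on glomerular RT1B+ and 2.59 and 2.85 on RT1Blow arrays, and at 1.65 to 2.55 on WKY blood CD8+ arrays. The arrays did not overlap, though the highest blood value, 2.55, lay close to the lowest glomerular one. The rise was 0.79 ± 0.22 (adjusted p = 0.0174, limma). Atp5f1a, the alpha subunit, rose by 0.69 ± 0.17 and Atp5f1d, the delta subunit, by 0.72 ± 0.19. The c-ring genes Atp5mc1 and Atp5mc2 rose by 0.77 and 1.06, although a second probe of Atp5mc2 gave 0.54 and its call was kept in 11 of 19 settings. Atp5f1c showed a difference of 0.00 ± 0.13.

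In complex I, 15 of 32 genes rose. Ndufa11, an accessory subunit of the membrane arm, was at 1.32 to 2.03 in glomerular and 0.39 to 0.80 in WKY blood CD8+ arrays, without overlap. It rose by 0.99 ± 0.21 (adjusted p = 0.00508, limma). Ndufb5 was at 3.37 and 3.42 on glomerular RT1B+ arrays, 2.78 and 2.91 on glomerular RT1Blow arrays and 2.16 to 2.57 in WKY blood CD8+ cells. Again no array overlapped, and the rise was 0.81 ± 0.14 (adjusted p = 0.00193, limma). Ndufab1, the mitochondrial acyl carrier protein that is also a subunit of the complex, rose by 0.79 ± 0.19. A second, dim probe of Ndufab1 gave 0.09. Among core subunits, Ndufs8, which carries iron-sulfur clusters, rose by 0.57, while Ndufs1 and Ndufs7 stood at -0.31 ± 0.16 and -0.28 ± 0.21 and did not pass. Probes of Ndufv3 disagreed: the brightest gave 0.11, while a dimmer one printed 10 times on the array gave -0.49 (adjusted p = 0.0173, limma). Ndufs4 gave -0.16 with the brightest probe and -1.52 with a probe that was well above background on 8 arrays.

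In complex II none of the enzyme's own subunits was called. The 4 subunit genes Sdha, Sdhb, Sdhc and Sdhd gave -0.11, 0.39, 0.05 and 0.29. The only call was Sdhaf1, an assembly factor for the iron-sulfur subunit, at 2.86 to 3.54 in glomerular and 1.94 to 2.24 in WKY blood CD8+ arrays. These arrays did not overlap, and the rise was 1.06 ± 0.18 (adjusted p = 0.00173, limma). Whether complex II differed from the other complexes was not tested. In complex III, 3 of 8 genes rose, Uqcr10, Uqcr11 and the core protein gene Uqcrc1, by 0.81, 1.08 and 0.66. For Uqcr11 the other probes gave 0.31 and 0.50 and did not pass, and the call was kept in 8 of 19 settings. Uqcrc2, the other core protein, stood at -0.46 ± 0.24.

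**Figure D2:**
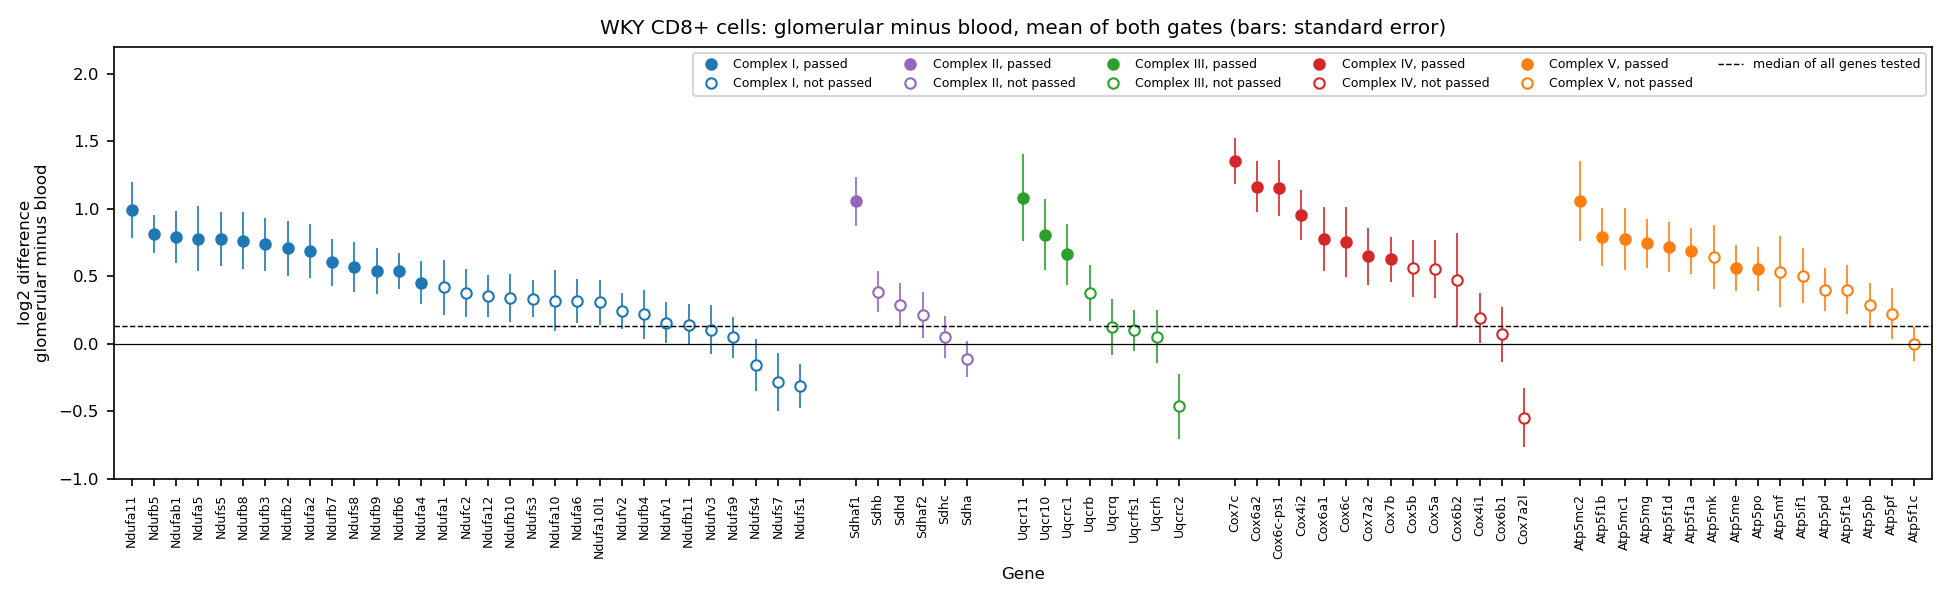
Log2 difference, glomerular minus blood, for 75 of the 76 genes in WKY CD8+ cells (points, averaged over both gates) with its standard error (bars), ordered within complexes; filled points passed the test. The 34 drawn genes that passed lie above 0, and the dashed line marks the median of all genes tested, 0.13.

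In each gate alone there were fewer calls, in shares near those of all genes. In RT1B+ cells 10 of 76 genes rose in glomeruli (13.2%, beside 10.2% of all genes), with a median of 0.51, beside 0.10. In RT1Blow cells 7 rose (9.21%, beside 7.68%), with a median of 0.51, beside 0.16. Leaving out 1 array at a time left a median of 0.42 to 0.56, lowest without WKY blood RT1B+ replicate 2. Fewer chain genes, and fewer of all genes, were called with any array left out. The fewest chain genes were called without glomerular RT1B+ replicate 2.

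Some cell type markers were also called between these groups, where 19.3% of all genes rose and 12.4% fell. In glomeruli 5 of 9 B cell, 4 of 8 erythroid and platelet and 2 of 8 NK cell markers fell, while 1 B cell marker rose. In the other direction 4 of 13 tubule, 3 of 10 glomerular cell, 3 of 10 macrophage, 2 of 5 neutrophil and 1 of 9 T cell markers rose. Among these lists, 1 tubule and 1 glomerular cell marker fell. Their part in the rise of the chain genes was not tested.

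Genes around the chain were counted against the 19.3% of all genes that rose and the 12.4% that fell. Cycs, which encodes cytochrome c, was at 3.12 to 4.10 in glomerular and 2.11 to 2.89 in WKY blood CD8+ arrays, without overlap, and rose by 1.05 ± 0.18. Of 16 genes of the citric acid cycle and pyruvate dehydrogenase, 6 rose and 1 fell, with a median of 0.36. Citrate synthase (Cs) rose by 0.89 and fumarase (Fh) by 0.85, while Suclg2, the GTP-forming subunit of succinyl-CoA ligase, fell by 0.68. Of 34 assembly factors, 6 rose and 5 fell (17.6% and 14.7%, near the shares of all genes): the copper chaperone Cox17 rose by 1.07 and Ndufaf1 by 1.23, and Coa5 fell by 1.16 and Tmem70, an assembly factor of complex V, by 0.89. Of 12 regulators of mitochondrial biogenesis, 4 rose and 2 fell. Esrra, a nuclear receptor that drives respiratory genes, rose by 0.90 and Nrf1 by 0.68, and Ppargc1b, a coactivator, fell by 0.86. Of 66 mitochondrial ribosomal protein genes 10 rose (15.2%) and 0 fell, with a median of 0.24. Of 74 cytosolic ribosomal protein genes, which are short and abundant transcripts outside the mitochondrion, 13 rose (17.6%) and 0 fell, with a median of 0.55. Both shares of rises lay below that of all genes. The median of the chain genes, 0.52, thus lay close to that of the cytosolic ribosomal genes, and the 2 lists were not tested against each other.

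The same glomerular CD8+ arrays were compared with pan T cells of blood, which shared their slide but lay in another row of it. Here 32 of 76 genes were higher in glomerular CD8+ cells and 3 lower, beside 42% of all genes called, 24.6% higher and 17.4% lower. The median of the 76 genes was 0.60, beside 0.15 for all genes. Complex IV had 9 of 14 genes higher, complex V 9 of 16, complex I 13 of 32, complex III 1 of 8 and complex II 0 of 6. Cox7c was higher by 1.06 ± 0.21, Cox4i2 by 0.94 ± 0.23, Atp5f1d by 0.91 ± 0.23 and Ndufa11 by 0.89 ± 0.26. After quantile normalization 10 genes were higher and 8 lower (13.2% and 10.5%, beside 21.9% and 22% of all genes), and in the series matrix 16 and 4 (21.1% and 5.26%, beside 31.5% and 13.8%). The median of the 76 genes was then 0.17 and 0.25, beside 0.01 and 0.32 for all genes, so in the series matrix the chain stood below the median gene. Under all scalings 7 genes stayed higher, namely Ndufa11, Cox4i2, Cox6a2, Cox6c-ps1, Cox7c, Atp5f1a and Atp5f1d, and both Ndufa4 and Cox7a2l stayed lower. Fewer chain genes were called with any array left out, fewest without pan T replicate 1. Of the glomerular arrays, leaving out RT1B+ replicate 2 lowered the calls most. Fewer of all genes were called in each case too. With 1 array left out at a time, the median stayed at 0.48 to 0.61, lowest without glomerular RT1B+ replicate 2. This comparison shares its glomerular arrays with the comparison against blood CD8+ cells. Of the erythroid and platelet markers 7 of 8 were lower in the glomerular CD8+ cells, with pan T arrays at a mean of 1.77 and 2.94 and glomerular CD8+ arrays between -4.13 and 0.12, and their part in the result was not tested.

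Ndufa4 was lower in CD8+ cells than in pan T cells and macrophage-labelled arrays. It was at 3.38 and 3.39 on the pan T arrays and at 3.08 and 2.76 on the macrophage-labelled arrays. On the 12 CD8+ arrays it lay between 1.16 and 2.13. No CD8+ array of either strain, tissue or gate reached the other 4 arrays. Blood CD8+ cells of WKY rats were lower than pan T cells by 1.89 ± 0.19 on the log2 scale, a 3.70-fold difference (adjusted p = 3.26e-05, limma). Glomerular CD8+ cells, on the same slide as the pan T cells, were lower by 1.43 ± 0.19, or 2.70-fold (adjusted p = 0.00016, limma), and lower than the macrophage-labelled arrays by 0.97 ± 0.19 (adjusted p = 0.0017, limma). These calls held in all 15, 18 and 18 settings tried, respectively. Between macrophage-labelled and pan T arrays Ndufa4 differed by -0.46 ± 0.22 (adjusted p = 0.11, limma). Within CD8+ cells it was higher in glomeruli than in blood by 0.45 ± 0.16 (adjusted p = 0.0484, limma), a call that was lost under each of the other scalings. By array the order from low to high was blood RT1Blow cells of WKY, blood RT1Blow and RT1B+ cells of LEW, blood RT1B+ cells of WKY, and then the glomerular cells, and neighbours in this order overlapped, except the lowest group, whose arrays lay below those of the next.

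Between blood CD8+ cells and pan T cells 3 genes were called, Cox6a2 higher and Ndufa4 and Sdhaf1 lower, beside 28.9% of all genes, and the median was 0.00, beside -0.02. The call of Cox6a2 here was not kept under all scalings, while those of Ndufa4 and Sdhaf1 were. Sdhaf1 was at 1.94 to 2.24 in WKY blood CD8+ and 2.86 and 2.99 in pan T arrays, without overlap, by 0.79 ± 0.22 (adjusted p = 0.0213, limma). After quantile normalization 3 genes were higher and 4 lower, beside 32.3% of all genes called, and in the series matrix 1 and 6, beside 29.8%.

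Cox7a2l and Ndufs1 were also lower in glomerular CD8+ cells than in pan T cells. Cox7a2l, which helps join complexes III and IV into supercomplexes, was at 5.46 and 5.32 on the pan T arrays, 4.87 to 5.38 on WKY blood CD8+ arrays, and 4.31, 4.44, 4.33 and 5.05 on the glomerular CD8+ arrays. The glomerular arrays lay below both pan T arrays, with one RT1Blow array close to blood. The difference from pan T was -0.85 ± 0.27 (adjusted p = 0.0235, limma), and that from blood CD8+ cells -0.55 ± 0.22 (adjusted p = 0.0761, limma). Ndufs1, the largest core subunit of complex I, was at 1.23 and 1.24 in pan T arrays and 0.13 to 1.04 in glomerular CD8+ arrays. It was lower by 0.71 ± 0.20 (adjusted p = 0.0141, limma). Over all alternatives the call of Cox7a2l was kept in 11 of 18 and that of Ndufs1 in 13 of 18.

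**Figure D3:**
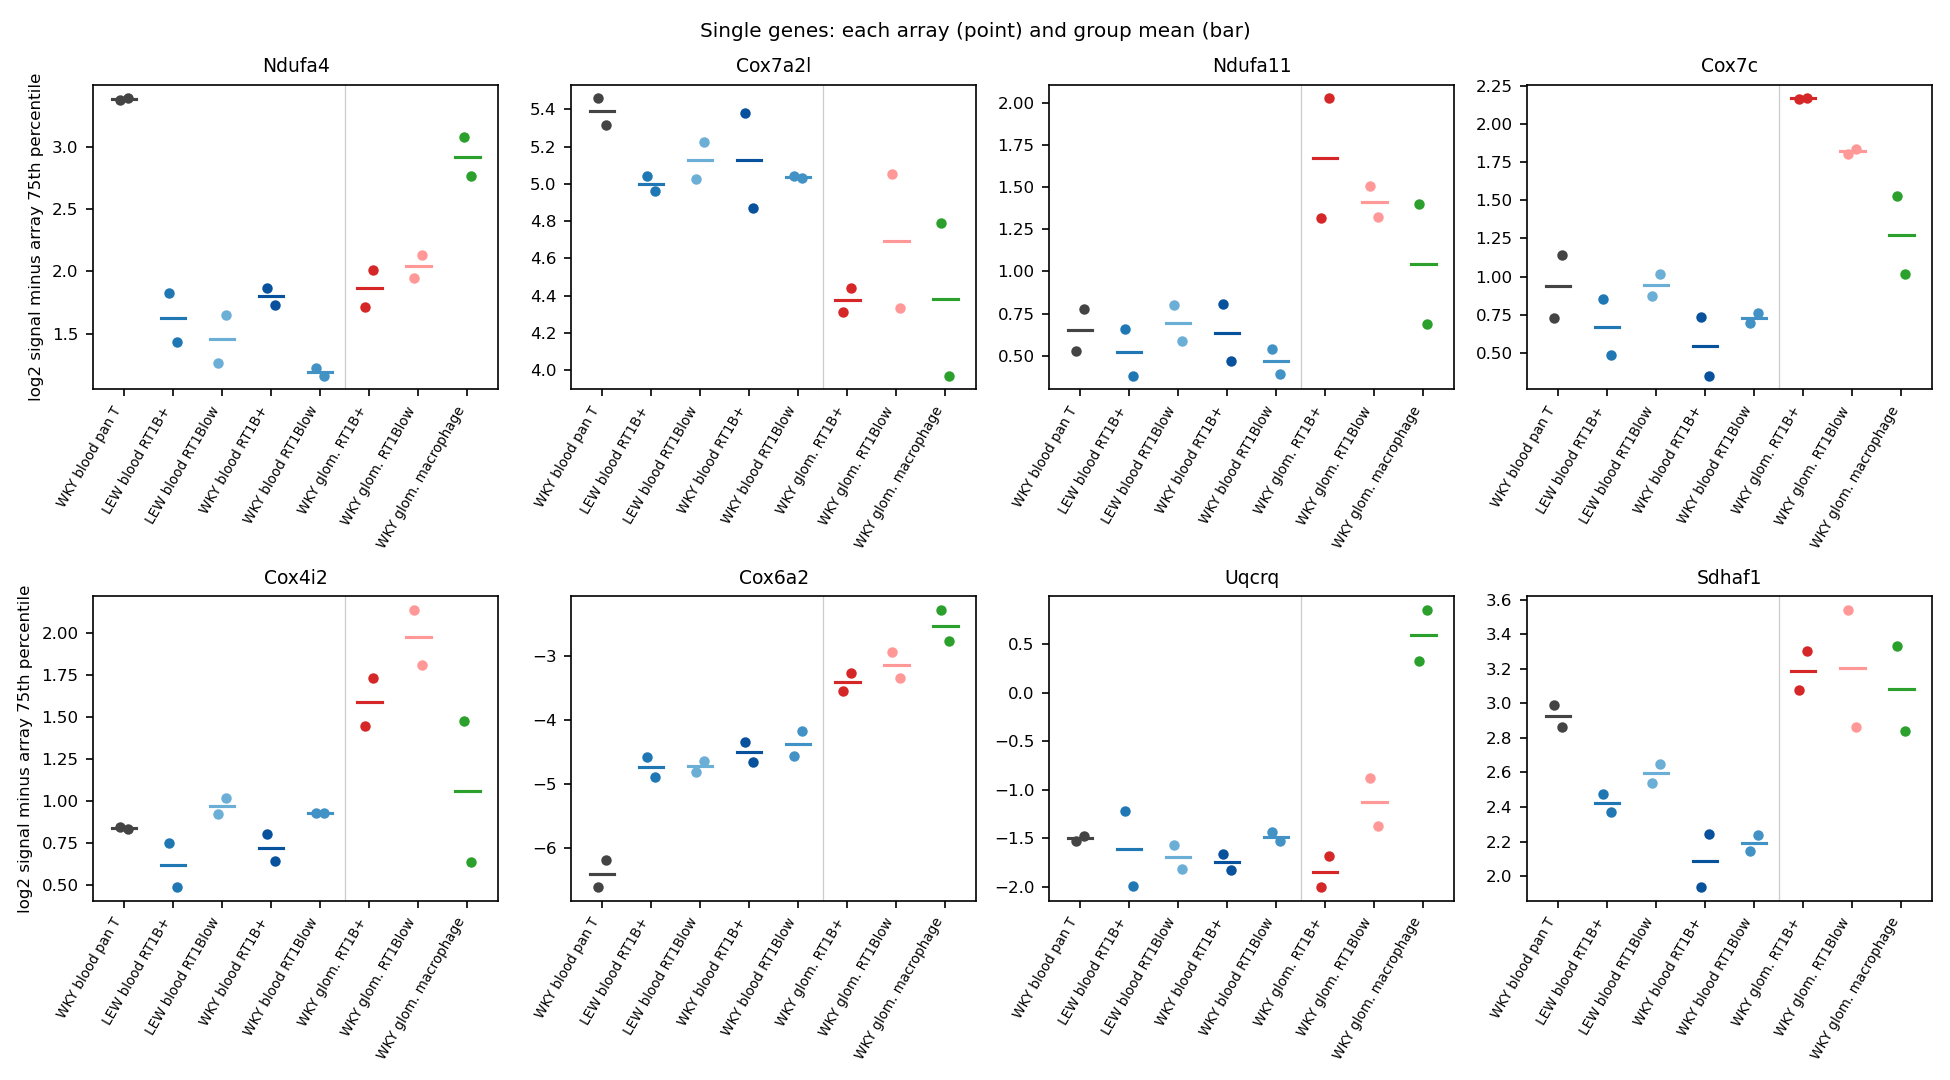
Level of 8 genes on every array (points) with the mean of the 2 arrays of a group (bars), on a log2 scale with 0 at each array's 75th percentile; axes differ between genes and the grey line separates blood from glomerular (glom.) groups. Ndufa4 is highest in pan T and macrophage-labelled arrays, Uqcrq in macrophage-labelled arrays, and Cox7c and Cox4i2 have their highest group means in glomerular CD8+ cells.

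The macrophage-labelled arrays differed from pan T cells in few chain genes: 5 were higher and 3 lower, beside 49.6% of all genes called. The median of the 76 genes was 0.13, beside -0.22 for all genes. Uqcrq, a small subunit of complex III that lies near its ubiquinone site, was at 0.33 and 0.85 on these arrays and at or below -0.88 on the other 14. No other array overlapped with them. The difference was 2.09 ± 0.29 from pan T cells, or 4.26-fold (adjusted p = 0.000166, limma), and glomerular CD8+ cells were lower than macrophage-labelled arrays by 2.08 ± 0.25 (adjusted p = 6.53e-05, limma). Both calls held under all 14 and 18 settings tried. The other 7 genes of complex III showed no such pattern.

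Cox6a2 was at -6.61 and -6.19 on the pan T arrays, where it was not well above background. It lay between -4.89 and -4.18 on blood CD8+ arrays, at -3.54 to -2.93 on glomerular CD8+ arrays and at -2.28 and -2.77 on the macrophage-labelled arrays. These 4 sets of arrays did not overlap, in this order. Against pan T cells it was at least 3.41-fold higher in WKY blood CD8+ cells (adjusted p = 8.91e-05, limma), at least 7.65-fold in glomerular CD8+ cells (adjusted p = 3.13e-06, limma) and at least 12.8-fold in macrophage-labelled arrays (adjusted p = 1.32e-06, limma). For these bounds, dim signals were set no lower than the lowest signal well above background on the array, and they hold for the 75th percentile scaling. With normexp correction the log2 differences from pan T cells were smaller, 0.65 in blood CD8+ cells, where the call was lost, 1.55 in glomerular CD8+ cells and 1.90 in macrophage-labelled arrays. In glomerular CD8+ cells it rose over blood by 1.17 ± 0.19 (adjusted p = 0.00126, limma). Atp5if1, which blocks the ATP synthase from running backwards, was at 4.38 and 3.63 on macrophage-labelled and 2.77 and 3.0 on pan T arrays, without overlap. It was higher by 1.12 ± 0.28 (adjusted p = 0.00717, limma). Cox6b2, a testis isoform by its usual expression, varied between arrays of a group as much as between groups, from 1.08 to 3.77.

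Lower in the macrophage-labelled than in the pan T arrays were Cox7a2l by 1.01 ± 0.31, Uqcrh by 0.75 ± 0.28 and Atp5f1e by 0.72 ± 0.26. None of these calls held under all scalings. After quantile normalization 24 genes were higher and 0 lower (31.6% and 0%, beside 22% and 33% of all genes), and in the series matrix 20 and 1 (26.3% and 1.32%, beside 20.1% and 26.5%). The macrophage-labelled arrays themselves disagreed: the median of the chain genes against pan T was 0.41 without replicate 2 and -0.19 without replicate 1.

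Between glomerular CD8+ cells and macrophage-labelled arrays 19 genes were higher in CD8+ cells and 4 lower, beside 55.6% of all genes called, 36.6% higher and 19% lower. The median of the 76 genes was 0.40 and that of all genes 0.40. The direction for the group depended on scaling: after quantile normalization 0 were higher and 15 lower with a median of -0.19, beside 32.9% and 19.8% of all genes, and in the series matrix 3 and 10 with a median of -0.10, beside 39.7% and 13.5%. Without macrophage-labelled replicate 1 the median was 0.77 and without replicate 2 it was 0.11, with far more genes called in the former case. Ndufa4 and Uqcrq, both lower in CD8+ cells, were the 2 genes called the same way under all scalings. Of the 74 cytosolic ribosomal protein genes 64 were higher in the CD8+ cells, with a median of 1.01.

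**Figure D4:**
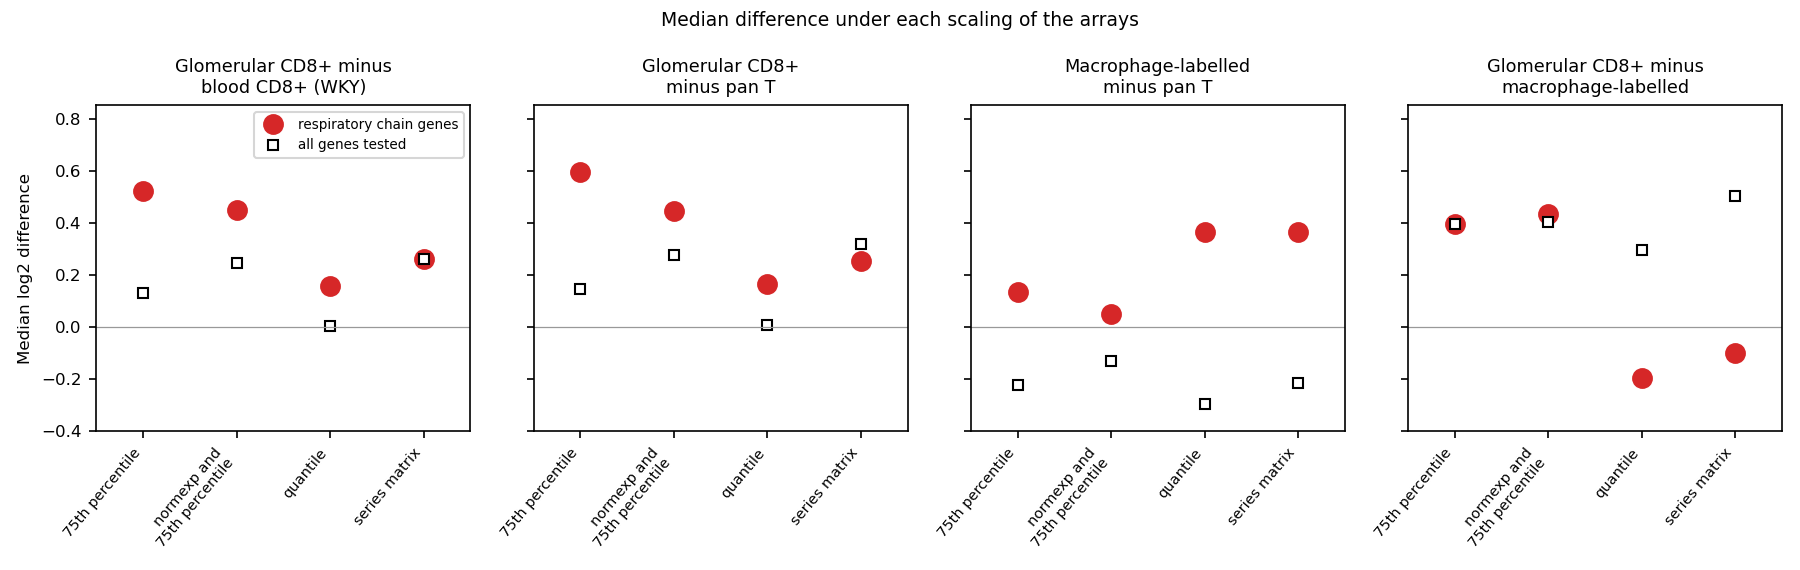
Median log2 difference of the 76 respiratory chain genes (circles) and of all genes tested (squares) under 4 ways to put the arrays on one scale, for 4 comparisons. The circles stand above 0 in the first 3 panels, near the squares in the series matrix for the glomerular CD8+ comparisons with blood, and on either side of 0 in the last panel.

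The study's main contrast, RT1B+ against RT1Blow cells, found no chain gene. RT1-Bb, a gene of RT1B, was checked with Cd8a and Cd8b, and 0 of these 3 passed between gates. Among B cell markers, 1 of 9 was higher in RT1B+ cells of WKY blood and 2 of 9 in LEW blood, and 6 of 9 were lower in glomeruli. Of the erythroid and platelet markers, 3 of 8 were lower in LEW blood and 3 of 8 in glomeruli. Their part in the gate results was not tested. In WKY blood 0 of 76 genes passed, beside 0.0704% of all genes, with a median of 0.09. At an unadjusted p under 0.05 there was 1 (1.32%, beside 5.22% of all genes). In LEW blood 0 passed, beside 0.0596%, with a median of -0.08 and 0 at an unadjusted p under 0.05, beside 3.63%. The difference between the strains in this contrast, tested per gene, gave 0 of 76 calls and 0 at an unadjusted p under 0.05, beside 0% of all genes called and 1.32% at the unadjusted p. In glomeruli 0 of 76 passed, beside 0.693%, with 10 at an unadjusted p under 0.05 (13.2%, beside 20.4% of all genes). The median was 0.12, beside -0.15, and 0.02 without glomerular RT1B+ replicate 2. Between gate differences in glomeruli and in blood 0 of 76 genes passed, beside 0.103% of all genes, and 2 had an unadjusted p under 0.05 (2.63%, beside 7.05%). For glomeruli 1 of 76 genes passed with normexp correction, 1 with a trended and robust variance and 1 without glomerular RT1Blow replicate 2, beside 0.558%, 1.86% and 3.86% of all genes.

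Strain made no called difference in blood CD8+ cells. Between WKY and LEW, averaged over both gates, 0 of 76 genes passed and 2 had an unadjusted p under 0.05 (2.63%), beside 5.24% of all genes called and 18.9% at the unadjusted p. The median was -0.05, beside 0.00. Sdhaf2, which helps attach FAD to complex II, had the lowest adjusted p (0.138, limma) with a difference of -0.50 ± 0.17. With the series matrix 5 genes were lower in WKY (6.58%, beside 13.3% of all genes). When each probe was tested on its own, a dimmer probe of Uqcrb, a complex III subunit, was higher in WKY by 0.61 while its brightest probe gave -0.52.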

How the data were processed

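One-colour Agilent arrays were read from the scanner files, whose deposited intensity values are the processed signal of Feature Extraction 11.0.1.1, background-subtracted per the file headers. The deposited series matrix holds log2 values on a common median of 7.91; how the authors normalized them is not given in the sources used here. The series' design text describes another array platform than the files show. Signals were taken as log2 and set to the 75th percentile of each array (471 to 2361 signal units). Spots marked as outliers were left out, replicate spots averaged, and each gene represented by its brightest probe, if some group had it well above background on both arrays. One limma 3.58.1 model in R 4.3.3 took all 16 arrays (group means, empirical Bayes, Benjamini-Hochberg over 18461 genes), tested on simulated data. A gene was called at an adjusted p under 0.05. Between 57.3% and 68.6% of spots were well above background on an array and 0 were saturated; the number of arrays limits the precision. Symbols came from RefSeq through the probes' accessions.

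Alternatives were normexp background correction, quantile normalization, the series matrix, no dim-probe filter, every probe on its own, a trended and robust variance, a 2-fold minimum, fewer arrays in the fit and leaving out each array. Each gate alone was added after seeing the data. The genes and lists were chosen with earlier results of these data known. Genes were named by rule: in each comparison the 8 strongest called rises and the 8 strongest called falls, the widest and narrowest range of group means in each complex, genes whose probes disagree, and isoforms of restricted expression. The text gives part of these; the other genes, such as Cox4i1, the Sdh subunits, Ndufs7, Ndufs8 and Uqcrc2, were named after their values were seen. Values of 1 gene are not reported here on their own; it stays in the counts and medians.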

Additional observations from a re-analysis of the deposited data

How the results depend on the processing

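No paired analysis was possible because the labels give no replicate numbers; numbers here follow accession order and only name arrays. For glomerular against blood CD8+ cells 35 genes passed, and the shares below are of calls in either direction. After quantile normalization 12 passed (15.8%, beside 31.1% of all genes, median 0.16), and without the dim-probe filter 23 (30.3%, beside 17.8%). With a 2-fold minimum 6 passed (7.89%, beside 15.4%). In RT1B+ cells alone 10 passed (13.2%, beside 17.4%) and in RT1Blow cells alone 7 (9.21%, beside 11.9%). The series matrix gave a median of 0.26. For glomerular CD8+ against pan T cells the 35 calls became 18 after quantile normalization (23.7%, beside 44% of all genes, median 0.17). They became 20 in the series matrix (26.3%, beside 45.3%, median 0.25) and 22 with the compared groups only (28.9%, beside 34.7%). With the slide only there were 11 (14.5%, beside 34.5%), and with a 2-fold minimum 4 (5.26%, beside 29.6%). In RT1Blow cells alone there were 19 (25%, beside 38.8%). For macrophage-labelled against pan T arrays the 8 calls became 24 (0.37), 21 (0.36), 2, 3 and 4 in that order, and 4 without the dim-probe filter. Of all genes, 55%, 46.6%, 37%, 41.9%, 39.3% and 30.8% were called in these settings, respectively. For glomerular CD8+ against macrophage-labelled arrays the 23 calls became 15 (-0.19), 13 (-0.10), 2, 6 and 2, and 14 in RT1Blow cells alone. The shares of all genes called were 52.7%, 53.1%, 44.1%, 47.2%, 38% and 48.9%, respectively. For blood CD8+ against pan T cells the 3 calls became 7 after quantile normalization and 7 in the series matrix (9.21% each, beside 32.3% and 29.8% of all genes). Between gates in glomeruli, 0 calls became 1 with normexp and 1 with a trended, robust variance (1.32% each, beside 0.558% and 1.86% of all genes). Between strains there were 5 in the series matrix (6.58%, beside 14.2%) and 1 with every probe on its own (1.05%, beside 5.15%). The glomerular minus blood level of complexes I to V after quantile normalization was 0.14, -0.019, -0.065, 0.17 and 0.15; complex II gave 0.31 with normexp, and complexes II, IV and V gave 0.27, 0.30 and 0.30 in the series matrix. Among the genes called under at least 1 of the 4 scalings, the sign turned for 2 of 42 between tissues (Atp5f1e and Cox6a1), 4 of 30 for macrophage-labelled against pan T arrays and 18 of 39 for glomerular CD8+ against macrophage-labelled arrays, and for 0 of 43 against pan T cells. Among the largest called changes of a comparison these were Atp5f1e, 0.0077 between macrophage-labelled and pan T arrays and -0.024 between glomerular CD8+ and macrophage-labelled arrays after quantile normalization, and Atp5mc2, -0.12 in the latter comparison in the series matrix. The cause of these changes was not tested.

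Leaving out 1 array at a time gave 12 to 33 calls between tissues (median 0.42 to 0.56), 6 to 34 for glomerular CD8+ against pan T cells (0.48 to 0.61), 3 to 13 for macrophage-labelled against pan T arrays (-0.19 to 0.41), 4 to 45 for glomerular CD8+ against macrophage-labelled arrays (0.11 to 0.77), 2 to 3 for blood CD8+ against pan T cells (-0.07 to 0.08) and 0 to 1 between gates in glomeruli (0.02 to 0.24). Between gates the median was 0.00 to 0.23 in WKY blood and -0.15 to -0.02 in LEW blood, and between strains -0.11 to -0.01. For the gate by strain difference it was 0.08 to 0.30, and for the gate by tissue difference -0.09 to 0.16. With 2 arrays a group, small differences were not detectable.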
